A study of Mus musculus with 8 samples.

Results

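Immediate early genes are genes that cells switch on within minutes of a stimulus, without first making new protein. Here 10 of them (Fos, Fosb, Jun, Junb, Egr1, Atf3, Nr4a1, Dusp1, Ier2 and Btg2) were followed in the diaphragm, the main breathing muscle, of dystrophic and normal mice. The genes were taken as a named list, and their probe sets were those for which the array's platform annotation gave 1 gene symbol only. This gave 12 probe sets of the 10 genes, of 20380 probe sets and 12393 genes with a single symbol in the value table. Jun and Btg2 each had 2 probe sets and the other genes had 1.

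The tested animals were dy/dy mice, which develop a severe muscular dystrophy because the basement membrane around their muscle fibres is deficient in laminin α2. They were set against mice labelled as normal, and both groups were 8 weeks old. Each group had 4 Affymetrix arrays, and each array carried muscle RNA pooled from 3 mice, so that 12 mice stood behind each group. The pool was the replicate, and the spread between single mice is not seen in these values. The labels do not say how or at what hour the tissue was taken, nor the sex and genetic background of the mice.

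Fos, Fosb, Jun and Junb encode subunits of AP-1, a transcription factor that works as a dimer. Egr1, Atf3 and Nr4a1 encode further transcription factors of the same early wave, and Dusp1 and Btg2 encode proteins that damp growth and MAP kinase signals. In skeletal muscle the transcripts are known to be induced by contraction, stretch and injury. They are short lived, so that their level can depend on the minutes before a tissue is taken. Many of their promoters carry cAMP response elements (CREs), the sites of the CREB and ATF families, and serum response elements.

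Signals are in the arbitrary units of the array software, after all arrays were brought to 1 common trimmed mean. The array labels matched the model: Lama2, which encodes laminin α2, had signals of 333, 239.7, 275.5 and 231.9 in dystrophic pools, against 792.7, 981.8, 858.6 and 749.5 in normal pools, with no overlap. All 12 skeletal muscle markers were among the probe sets tested, and their summed signal was 191366 to 216799 in dystrophic pools and 193188 to 297332 in normal pools. Dystrophic pool 3 stood apart in liver transcripts. The summed signal of 7 liver genes was 52282 there and 1690 to 6217 in the other dystrophic pools, against 1181 to 3462 in normal pools. Control RNAs added before labelling (poly-A spike-ins) sorted the arrays into 3 levels, each shared by dystrophic and normal arrays. Their geometric mean was 581 in dystrophic pool 1 and 519.7 in normal pool 1, 288.1 in dystrophic pool 3 and 328.6 in normal pool 3, and 139.2 to 157.2 in dystrophic pools 2 and 4 against 122.6 to 127.5 in normal pools 2 and 4. The labels name no batch.

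The promoters show what several of these genes share. A RefSeq table of assembly GRCm38.p6 held 8 of the 10 genes, the others being Egr1 and Ier2, and the 250 bases upstream of each start site were searched on both strands. The core of the CRE, TGACG, was found in 7 of the 8 promoters (not in Jun), and in 17.8% of 32851 promoters in the table. The full palindrome TGACGTCA, which contains that core on each strand, was found in Dusp1 and Btg2 and in 1.55% of promoters. Nr4a1 held 4 copies of the core and Fos held 2. These 4 promoters are printed from 5′ to 3′ on the gene's strand, with each copy of the core in capitals (CGTCA where it lies on the opposite strand), because they carry the repeated cores and the full palindromes.
Fos, chr12:85473640-85473889, plus strand: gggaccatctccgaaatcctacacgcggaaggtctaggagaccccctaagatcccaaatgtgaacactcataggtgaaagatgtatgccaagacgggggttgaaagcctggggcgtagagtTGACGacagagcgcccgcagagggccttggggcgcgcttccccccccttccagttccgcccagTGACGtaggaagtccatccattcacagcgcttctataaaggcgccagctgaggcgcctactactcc
Nr4a1, chr15:101266596-101266845, plus strand: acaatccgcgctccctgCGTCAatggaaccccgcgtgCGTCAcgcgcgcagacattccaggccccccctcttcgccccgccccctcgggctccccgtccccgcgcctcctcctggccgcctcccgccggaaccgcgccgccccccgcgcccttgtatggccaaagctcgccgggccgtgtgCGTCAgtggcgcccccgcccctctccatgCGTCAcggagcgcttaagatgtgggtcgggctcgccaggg
Dusp1, chr17:26508473-26508722, minus strand: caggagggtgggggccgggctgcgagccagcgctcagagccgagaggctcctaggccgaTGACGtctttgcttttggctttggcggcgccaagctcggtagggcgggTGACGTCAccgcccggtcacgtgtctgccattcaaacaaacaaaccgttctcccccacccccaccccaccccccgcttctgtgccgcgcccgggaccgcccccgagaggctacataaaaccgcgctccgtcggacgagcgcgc
Btg2, chr1:134079156-134079405, minus strand: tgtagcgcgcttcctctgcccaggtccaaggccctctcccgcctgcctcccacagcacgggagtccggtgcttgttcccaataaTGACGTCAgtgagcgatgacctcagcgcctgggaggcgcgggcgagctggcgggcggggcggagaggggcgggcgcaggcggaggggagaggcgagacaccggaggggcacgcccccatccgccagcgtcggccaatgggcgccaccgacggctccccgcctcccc
Counting the base just before the start site as -1, the palindrome began at -143 in Dusp1 and at -166 in Btg2. The cores of Fos began at -129 and -66, and Fos alone among the 8 held TATAAA, at -33, a motif present in 12.4% of promoters. The Egr motif GCGNGGGCG was found in Btg2, Fosb and Nr4a1 and in 4.7% of promoters, and in Nr4a1 it began at -60, between the cores at -69 and -40. The AP-1 motif TGANTCA, held by 6.75% of promoters, and the CArG box of serum response elements, held by 1.47%, were not found in these 8 windows. Such matches describe the letters in these windows and say nothing of which factor was bound.

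No immediate early gene passed the test between dystrophic and normal diaphragm. Of the 12 probe sets, all of which were bright enough to be tested, 0 passed limma's test at an adjusted p of 0.05 (Benjamini-Hochberg over 13575 probe sets), where 0.494% of all probe sets tested did. At an unadjusted p of 0.05 there were also 0, against 9.72% of all probe sets tested. In 0 of the 12 were the dystrophic pools all above or all below the normal pools, against 6.4% of all probe sets tested. Differences are given as dystrophic minus normal on the scale of log2(signal + 16). They were above 0 for 8 probe sets and below 0 for 4, with a median of 0.09 and a range of -0.52 to 0.55, beside a median of -0.01 over all genes tested.

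**Figure D1:**
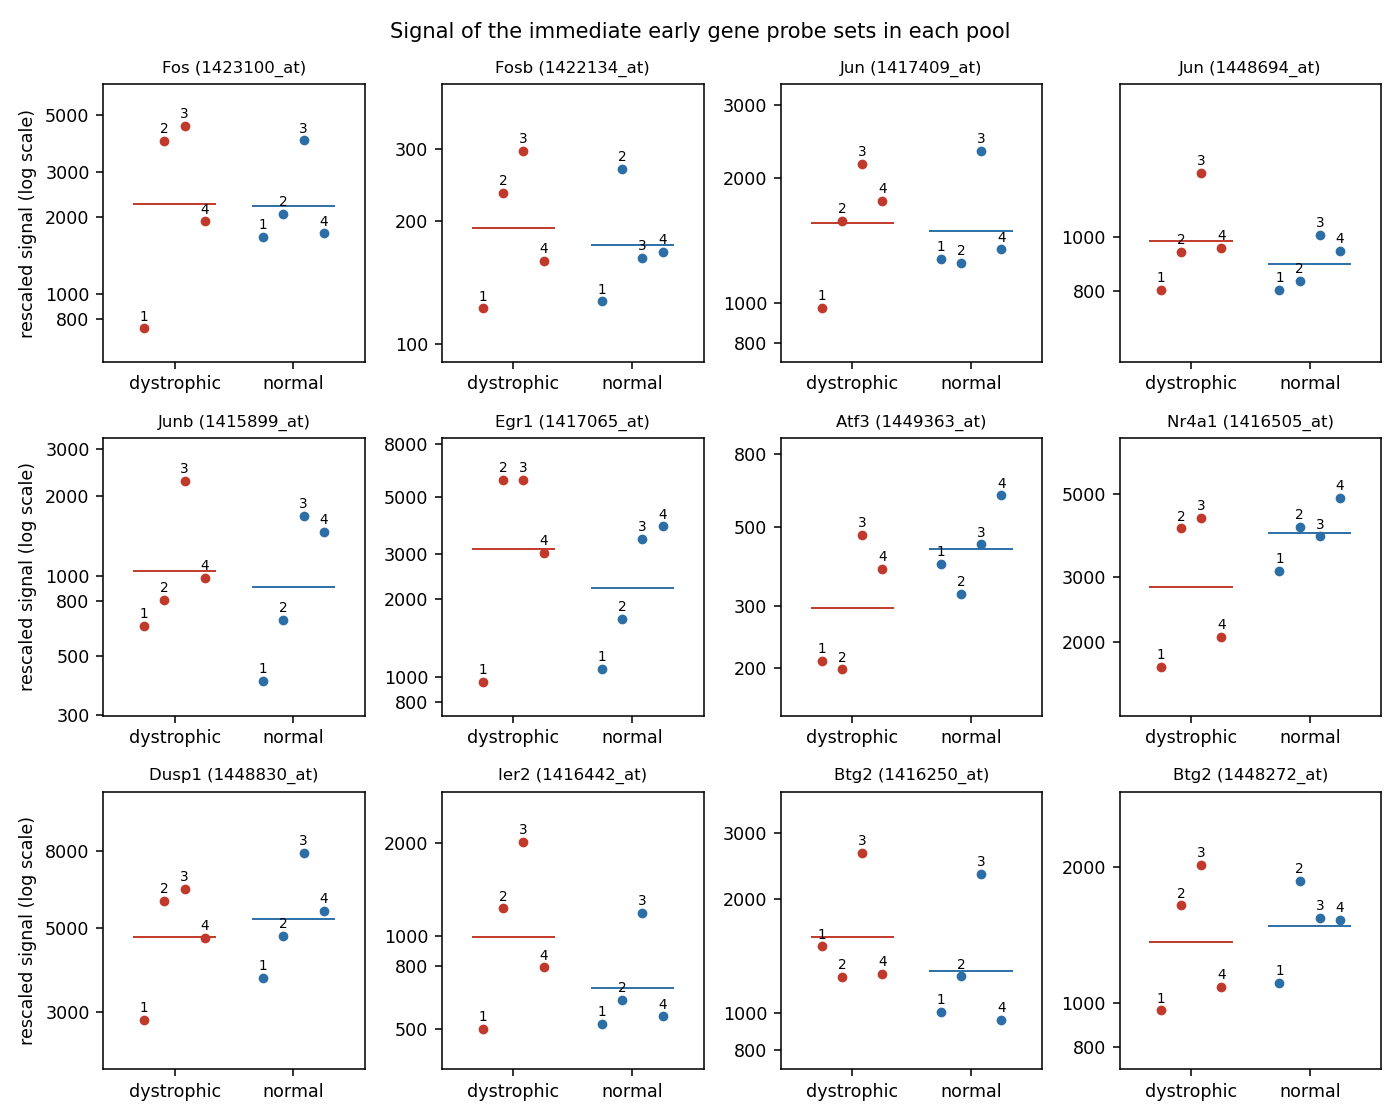
Rescaled signal (arbitrary units, log axis) of each probe set in the 4 dystrophic pools (red, left) and the 4 normal pools (blue, right), numbered by pool, with a line at the geometric mean of the group. The groups overlap in every panel, and dystrophic pool 3 is the highest dystrophic pool in all 12.

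Fos, whose protein pairs with Jun proteins, had signals of 735.8, 3976.2, 4557.7 and 1927.6 in dystrophic pools 1 to 4, against 1679.2, 2056.2, 3996.5 and 1731.5 in normal pools 1 to 4. The dystrophic pools included both the highest and the lowest of the 8 values, 6.19-fold apart, and the normal pools were 2.38-fold apart. Mean signals were 2799 ± 1779 in dystrophic pools and 2366 ± 1099.8 in normal pools (SD, n = 4 each), and the log2 difference was 0.03 with a standard error of 0.49 (limma adjusted p = 0.995). Fosb, a close relative of Fos, was dimmer, at 122.1, 234.2, 296.9 and 159.8 in dystrophic pools, against 127, 268.1, 162.5 and 167.9 in normal pools. For both genes pool 1 was the lowest pool of each group. The log2 difference of Fosb was 0.13 with a standard error of 0.28 (limma adjusted p = 0.933).

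Jun, the main partner of Fos proteins, was read by probe sets 1417409_at and 1448694_at. The first gave 970.6, 1577, 2165.1 and 1761.5 in dystrophic pools, against 1274.1, 1244.1, 2319.1 and 1344.3 in normal pools. Normal pool 3 stood well above the other normal pools, and dystrophic pool 3 was the highest of its own group. The second gave 801.8, 940.3, 1309.2 and 957.5 in dystrophic pools, against 801.2, 833.6, 1009.3 and 943.6 in normal pools, with pool 3 again highest in each group. The log2 differences were 0.06 with a standard error of 0.26 and 0.14 with a standard error of 0.16 (limma adjusted p = 0.966 and 0.841). The second had the narrowest interval of the 12, from -0.21 to 0.49 (95%), and its values spanned 1.63-fold in dystrophic pools and 1.26-fold in normal pools.

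Junb, which can act in AP-1 in place of Jun and is weaker as an activator at many Jun targets, had signals of 645.5, 813.2, 2273.2 and 980.2 in dystrophic pools, against 401.7, 683.5, 1682.2 and 1466.1 in normal pools. Values ran over more than a 3-fold range in both groups (3.52-fold in dystrophic and 4.19-fold in normal pools), with pool 1 lowest and pool 3 highest in each. The log2 difference was 0.19 with a standard error of 0.46 (limma adjusted p = 0.942).

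Egr1, a zinc finger factor that binds GC-rich sites, varied most of the 12 probe sets. Its signals were 952.6, 5821.9, 5830.7 and 3032.2 in dystrophic pools, against 1068.9, 1675.7, 3437.2 and 3840.1 in normal pools. Dystrophic pools 2 and 3 were higher than every normal pool, while dystrophic pool 1 was lower than every normal pool. Mean signals were 3909 ± 2371 in dystrophic pools and 2505 ± 1342 in normal pools (SD, n = 4 each). The log2 difference of 0.51 had a standard error of 0.55 and a 95% interval of -0.70 to 1.72 (limma adjusted p = 0.831, exact permutation p = 0.571, two-sided). With 1 pool left out at a time it ran between 0.17 and 1.08.

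Atf3, a stress-induced member of the ATF/CREB family, had the largest negative difference. It had signals of 209.2, 198.6, 475.8 and 381.4 in dystrophic pools, against 393, 323.5, 446.6 and 613 in normal pools. Dystrophic pools 1 and 2 were below all normal pools, and dystrophic pools 3 and 4 lay within the normal range. The log2 difference was -0.52 with a standard error of 0.28 and a 95% interval of -1.14 to 0.09 (limma adjusted p = 0.591, exact permutation p = 0.229, two-sided).

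Nr4a1, an orphan nuclear receptor known in muscle for genes of glucose use, had signals of 1717.4, 4050.2, 4328.9 and 2071 in dystrophic pools, against 3109.9, 4087.8, 3855.1 and 4879.8 in normal pools. Dystrophic pools 1 and 4 were below all normal pools and the others lay among them. The log2 difference was -0.48 with a standard error of 0.28 and a 95% interval of -1.10 to 0.13 (limma adjusted p = 0.627, exact permutation p = 0.286, two-sided). For Atf3 and Nr4a1 alike the difference stayed below 0 whichever pool was left out, between -0.74 and -0.34 for Atf3 and between -0.69 and -0.25 for Nr4a1.

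Dusp1, a phosphatase that switches off MAP kinases, had signals of 2866.7, 5902.3, 6337.5 and 4713.8 in dystrophic pools, against 3705, 4783.7, 7892 and 5544.9 in normal pools. In both groups pool 1 was lowest and pool 3 highest, and the log2 difference was -0.15 with a standard error of 0.27 (limma adjusted p = 0.908). Ier2, a nuclear protein of the early response, had signals of 498.8, 1230.5, 2027.1 and 791.2 in dystrophic pools, against 518.9, 619.7, 1191.3 and 548.6 in normal pools. Dystrophic pools 2, 3 and 4 were above normal pools 1, 2 and 4, but dystrophic pool 1 had the lowest value of all 8. Its log2 difference of 0.55, the largest positive one, had a standard error of 0.38 and a 95% interval of -0.29 to 1.38 (limma adjusted p = 0.703, exact permutation p = 0.343, two-sided).

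Btg2, an antiproliferative protein induced by p53 and growth factors, was read by probe sets 1416250_at and 1448272_at, whose differences had opposite signs. The first gave 1502.1, 1246.5, 2658 and 1273.2 in dystrophic pools, against 1005.9, 1251.8, 2338.4 and 958.4 in normal pools. The second gave 964.9, 1644.6, 2021.1 and 1088.3 in dystrophic pools, against 1108.7, 1861.5, 1544.2 and 1525.7 in normal pools. Pool 2 was the lowest dystrophic pool on the first probe set and next to the highest on the second, so the 2 probe sets differed in how they ordered the pools. The log2 differences were 0.29 with a standard error of 0.30 and -0.12 with a standard error of 0.24 (limma adjusted p = 0.822 and 0.923). With 1 pool left out the first ran between 0.04 (without dystrophic pool 3) and 0.57 (without normal pool 3).

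The width of the intervals sets what this comparison, which did not pair the pools by number, could show. In a fit with pool number as a block, the standard error was smaller for 12 of 12, with a median of 0.17, against 0.28. All 12 of the 95% intervals spanned 0, as the plot of differences by probe set shows. The intervals of Fos, Junb, Egr1 and Ier2 also included a level 2-fold higher in dystrophic pools. Those of Fos, Atf3 and Nr4a1 included a level 2-fold lower. In the fit without the block, a difference of that size thus lies within the error of these genes' values. Adjusted p-values over the 12 probe sets ran from 0.591 to 0.995 (limma), and two-sided exact permutation p-values from 0.229 to 0.971, where 0.0286 is the smallest that 4 against 4 pools can give.

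**Figure D2:**
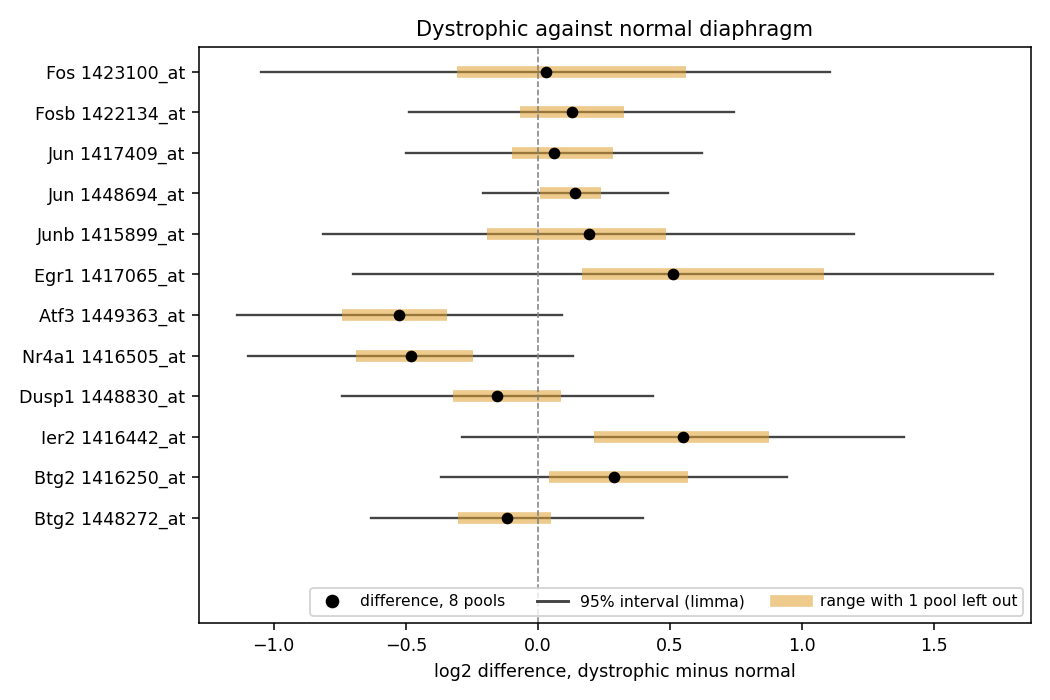
Log2 difference of each probe set, dystrophic minus normal (points, 8 pools), with limma's 95% interval (thin lines) and the range of the difference when any 1 pool is left out (orange bars). All 12 intervals cross 0, and the estimates lie between -0.52 and 0.55.

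The immediate early genes varied widely from pool to pool. The SD of log2 values within groups had a median of 0.50 over the 12 probe sets, against 0.24 over all probe sets tested, and 10 of the 12 lay above 0.44, the 90th percentile of all tested. Egr1, at percentile 99.4, Fos at 99.1 and Junb at 98.9 were widest, followed by Ier2 at 97.9. The exceptions were Btg2 1448272_at, at percentile 86.8, and Jun 1448694_at, at 45.4. Values differed by more than 2-fold among dystrophic pools for 11 of the 12 probe sets and among normal pools for 7. The SD was larger among dystrophic pools for 10 of the 12, the exceptions being Junb and Btg2 1416250_at. This is a description of 4 pools a group, and the difference in spread was not tested.

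**Figure D3:**
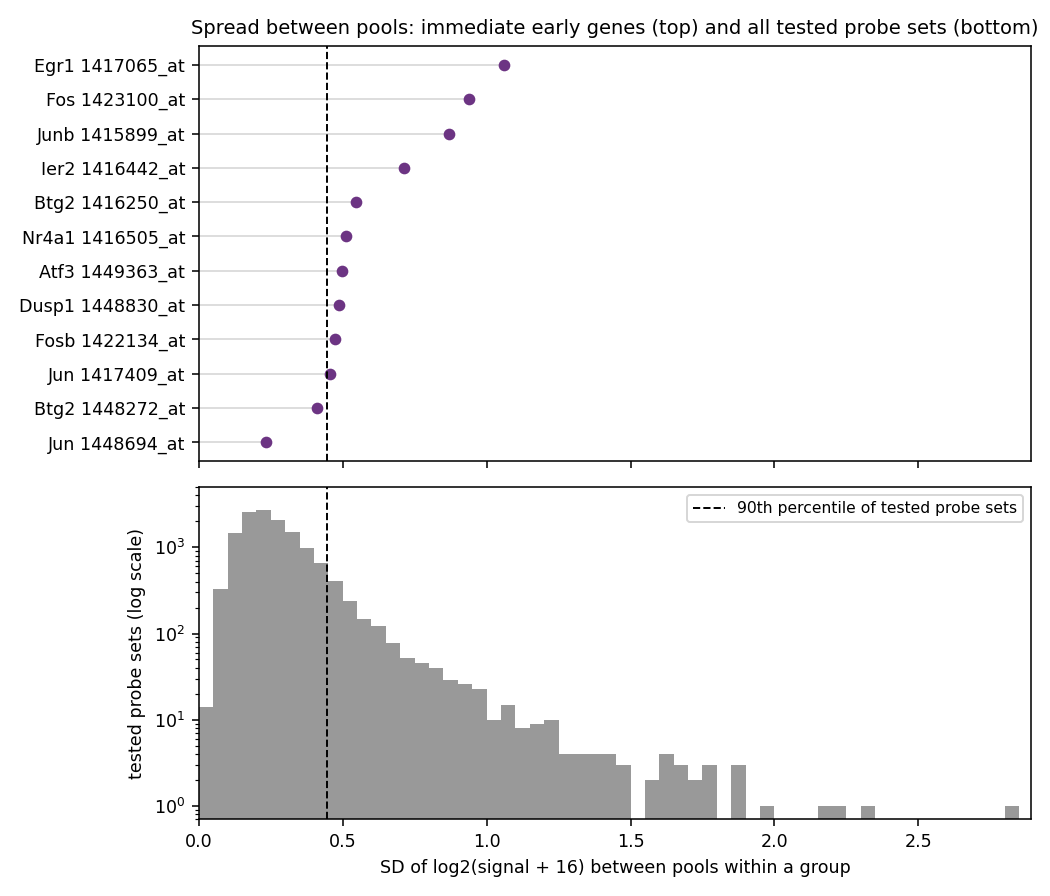
SD of log2(signal + 16) between pools, pooled over the dystrophic and normal groups, for the 12 immediate early probe sets (top) and for all 13575 probe sets tested (bottom, counts on a log axis). The dashed line is the 90th percentile, 0.44, and 10 of the 12 lie to its right.

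The genes were high and low in largely the same pools. Dystrophic pool 3 was the highest dystrophic pool for 12 of 12 probe sets and the highest of all 8 pools for 8. Dystrophic pool 1 was the lowest dystrophic pool for 10 and the lowest of all 8 pools for 8, and dystrophic pool 2 was lowest of its group for the other 2, Atf3 and Btg2 1416250_at. Among normal pools, pool 3 was highest for 7, pool 4 for 3 and pool 2 for 2, and pool 1 was lowest for 9. Averaged over the 10 genes, the log2 level relative to the mean of all pools was -0.79, 0.22, 0.78 and -0.09 in dystrophic pools 1 to 4, against -0.52, -0.16, 0.48 and 0.08 in normal pools 1 to 4. Pool 1 was below its own group's mean for 12 of 12 probe sets in both the dystrophic and the normal group. Pool 1 also had something in common between the groups over the whole array. Over all probe sets tested, log2 deviations from the group mean correlated at 0.48 between dystrophic and normal pool 1. For pools 2 to 4 the correlations were -0.05, 0.15 and 0.13. The share of all probe sets with the same pool order was not counted, so these counts are not set apart from the array as a whole.

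**Figure D4:**
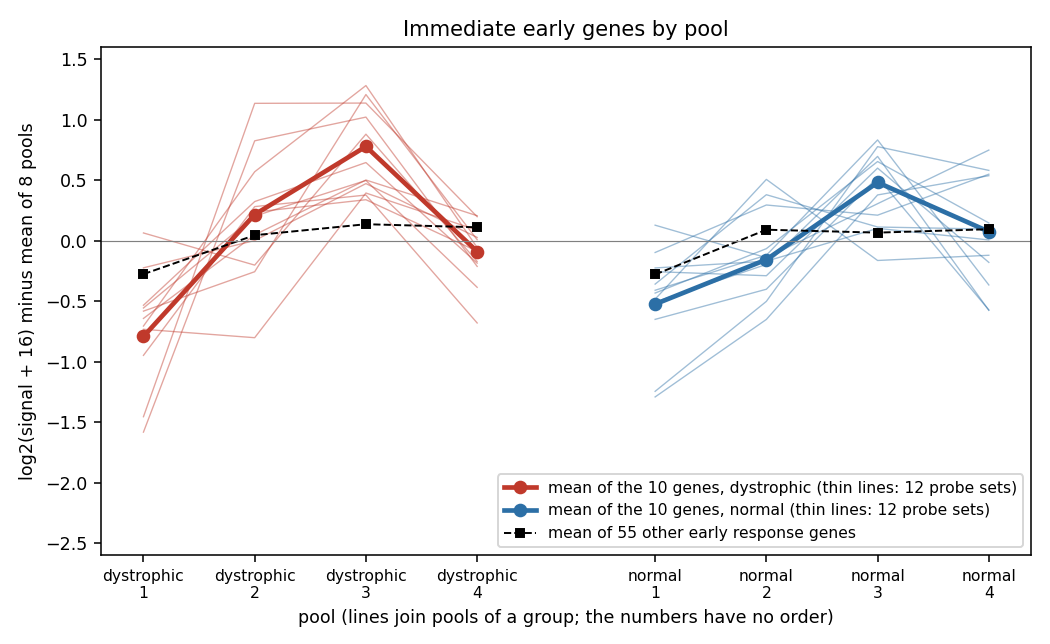
Log2 level of each immediate early probe set (thin lines) and the mean over the 10 genes (thick lines) in each pool, relative to the mean over all 8 pools, in dystrophic (red) and normal (blue) pools, with the mean of 55 other early response genes (dashed). Pool 1 is lowest and pool 3 highest in both groups for the mean of the 10 genes.

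Pool 1 of each group was also the array with the highest spike-in level of its group, and pool 3 the one with the next highest. Within arrays of like spike-in level, the signs of the differences were mixed: only 2 of the 12 probe sets, Jun 1448694_at and Btg2 1416250_at, had the same sign at all 3 levels. For Jun 1448694_at that rests on almost no difference in pool 1, at 0.001, with 0.37 in pool 3 and 0.10 in pools 2 and 4. Btg2 1416250_at had 0.57, 0.18 and 0.20 in that order. The levels of pools 1 and 3 set 1 pool against 1 pool. Ier2, for example, had a log2 difference of -0.06 in pool 1, 0.76 in pool 3 and 0.74 in pools 2 and 4, and Egr1 had -0.16, 0.76 and 0.72. Atf3 had -0.86 in pool 1, 0.09 in pool 3 and -0.66 in pools 2 and 4, and Nr4a1 had -0.85, 0.17 and -0.62. The part of the spike-in level in these values was not tested.

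Dystrophic pool 3, in which these genes were highest, also had the highest sum of liver transcripts, 52282. In the other pools the 2 levels did not run together. The liver sum was 6217, 1690 and 4612 in dystrophic pools 1, 2 and 4, and these genes were lowest in pool 1. It was 1341, 3462, 1181 and 1364 in normal pools 1 to 4, and these genes were highest in normal pool 3. Without dystrophic pool 3 the median difference over the 10 genes was -0.24, against 0.09 with that pool. Leaving out dystrophic pool 1, in which these genes were lowest, gave 0.30, leaving out normal pool 1 gave -0.06, and leaving out normal pool 3 gave 0.18. The differences of Fos, Fosb, Jun 1417409_at and Junb turned negative without dystrophic pool 3, at -0.31, -0.07, -0.10 and -0.18. That of Jun 1448694_at was 0.006, against 0.14 with the pool, those of Egr1 and Ier2 became smaller, at 0.22 and 0.21, and that of Atf3 reached -0.74 (limma adjusted p = 0.493). None of the 12 passed the test without that pool. The part of the liver transcripts in these values was not tested.

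The genes outside the list whose levels over the 8 pools lay closest to the mean of the 10 genes were Rbmx, Nid2, Ttc19, Tmem184c and Scaf11, taken by the smallest root-mean-square difference of centred log2 values. Rbmx, which encodes an RNA-binding protein, differed by 0.16 from that mean and had signals of 215.4, 447.3, 478.8 and 337.8 in dystrophic pools, against 200.8, 310.1, 450.3 and 336.1 in normal pools. Like the early genes it was lowest in pool 1 and highest in pool 3 of each group. Nid2, which encodes the basement membrane protein nidogen 2, differed by 0.17 and had signals of 160.2, 427.3, 449 and 311.1 in dystrophic pools, against 187.3, 232.7, 362.4 and 321.9 in normal pools. The members themselves differed from their own mean by 0.18 (Dusp1) to 0.57 (Egr1), and the median over all genes was 0.55. None of the 5 genes passed the test, with log2 differences of -0.18 to 0.22. They were picked by closeness to the mean of the 10 genes, so a like pool order and a small group difference largely follow from that choice.

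Of 64 other early response genes, 60 were on the array and 55 were tested. Of these 0 rose and 0 fell in dystrophic pools by limma's adjusted p, where 0.597% of all genes tested rose and 0.0487% fell, and their median log2 difference was 0.01. At an unadjusted p of 0.05, 5 were higher and 5 lower, against 6.57% higher and 4.19% lower among all genes tested. The dystrophic and normal pools did not overlap for 5 of the 55, a share near the 7.17% of all genes tested. These 5 were picked out after their values were seen: Ccn2, Klf5, Gadd45a and Id2 were higher, with log2 differences of 0.55, 0.90, 0.71 and 1.07, and Rgs2 was lower, at -0.86. Their limma adjusted p-values, 0.192, 0.103, 0.0979, 0.238 and 0.124 in that order, did not pass. Rgs2, which restrains G protein signals, had 386.8, 455.4, 562.2 and 451.3 in dystrophic pools, against 594.5, 791.4, 898.8 and 1208.1 in normal pools. The 2 brightest of the list were Nfkbia, the inhibitor of NF-kappa-B, at -0.04, and Mcl1, a survival protein of the Bcl-2 family, at 0.01.

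The wide spread was shared in part by these genes. Of the 55, 19 (34.5%) had an SD above the 90th percentile, against 7.82% of all genes, and their mean level was lowest in pool 1 of both groups, at -0.28 in dystrophic pool 1 and -0.28 in normal pool 1. The kinases and factors that act upstream of early genes behaved otherwise: 26 of 41 were tested, and 0 had an SD above that percentile. By limma's adjusted p 0 rose and 0 fell, and their median was -0.09. At an unadjusted p of 0.05, 0 were higher and 2 lower, against 6.57% and 4.19% of all genes tested. Mef2c and Map2k3, the brightest of them, had log2 differences of -0.22 and 0.10.

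Among partners and textbook targets of AP-1 and Egr factors, 15 of 25 were tested, with a median of 0.23. By limma's adjusted p 1 rose and 0 fell, against 0.597% and 0.0487% of all genes tested. At an unadjusted p of 0.05, 3 were higher (Timp1, Mt1 and Mt2) and 2 lower (Vegfa and Mmp9), against 6.57% and 4.19% of all genes tested. The pools did not overlap for 4 (Timp1, Mt2, Plaur and Mmp9), against 7.17% of all genes tested. All of these but Timp1, the gene that passed, were picked out after their values were seen. With 1 pool left out the list's median ran from 0.14 (without normal pool 4) to 0.38 (without normal pool 3). Timp1, an inhibitor of matrix metalloproteinases, had signals of 662.5, 457.9, 691.6 and 661 in dystrophic pools, against 208.1, 260.8, 176.7 and 186.2 in normal pools. All dystrophic pools were above all normal pools, and the log2 difference was 1.50 with a standard error of 0.18 (limma adjusted p = 0.00407). Macrophage and fibroblast markers, whose values follow, were also higher in the dystrophic pools, and their part in the Timp1 value was not tested. Of inducible stress genes, 16 of 18 were tested, and 0 rose and 0 fell by limma's adjusted p. At an unadjusted p of 0.05, 0 were higher and 2 lower, against 6.57% and 4.19% of all genes tested. The list's median was -0.18, with Hspb1 and Hspa8, chaperones, at -0.19 and -0.38. With 1 pool left out that median ran from -0.31 (without normal pool 3) to -0.06 (without normal pool 2). These genes were also variable, 9 of the 16 lying above the 90th percentile of SD. But their mean level was highest in normal pool 2, at 0.53. It was the lowest of each group in pool 3, at -0.30 in dystrophic pool 3 and -0.24 in normal pool 3.

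Some markers of macrophages, fibroblasts, and muscle stem cells and regenerating fibres rose by limma's adjusted p, as did 0.597% of all genes tested. Macrophage markers summed to 12497 to 14877 in dystrophic pools, against 7516 to 10025 in normal pools, and 3 of 12 rose (Mpeg1, Ctss and Cd68). Fibroblast markers summed to 43288 to 54795 in dystrophic pools, against 29560 to 36142 in normal pools, and 3 of 10 rose (Postn, Lum and Col1a2). Of 6 tested markers of muscle stem cells and regenerating fibres, 4 rose (Myh3, Myh8, Myog and Ncam1), and the summed signal of all 9 was 3216 to 5097 in dystrophic pools, against 1404 to 1594 in normal pools, with Pax7, Myf5 and Chrng too dim to test. No gene passed among the tested markers of skeletal muscle (12), endothelium (10), smooth muscle and pericytes (7), mesothelium (5), liver (5), adipocytes (3), and blood and lymphocytes (2) by limma's adjusted p. At an unadjusted p of 0.05, 9 macrophage, 7 fibroblast, 4 muscle stem cell and regenerating fibre and 2 liver markers were higher. At that level 1 skeletal muscle, 2 endothelial and 2 smooth muscle and pericyte markers were lower. Of all genes tested, 6.57% were higher and 4.19% lower. Pools mix all these cells, so fewer cells of a type and less RNA per cell cannot be told apart, and the part of the cell mixture in the early gene values was not tested.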

How the data were processed

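RNA from 4 pools of dy/dy diaphragm and 4 pools of normal diaphragm was measured on 8 Affymetrix arrays. The authors deposited signal intensity values on a linear scale, made with MAS5 per the submitters' processing notes. The software version was not given in the sources used here, and no detection calls were used. Before rescaling, normal replicate 4 had a 2% trimmed mean of 400.2 and the other 7 arrays one of 500.2. All were set to 487.7. Tests used log2(signal + 16), computed from the deposited intensities after this rescaling. Adding 16 makes differences of dim probe sets smaller. The 64 controls were dropped, as were the dimmest 40% of probe sets by mean log2 value, leaving 13575. Symbols came from the platform annotation, where 20380 probe sets had 1 symbol, 691 several and 1555 none, and 20351 were updated by Entrez identifier through a RefSeq gene table. The brightest probe set stood for a gene in lists, which gave 8214 genes. The number of arrays limits the precision.

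Dystrophic and normal pools were compared by limma 3.58.1 under R 4.3.3, using lmFit and eBayes with its trend option. P-values were adjusted by Benjamini-Hochberg over the whole set of 13575, and 0.05 was the threshold. Exact permutation tests were two-sided over 4 against 4 pools. Tables and figures were made in Python 3.11.15 with matplotlib 3.10.9, and the fit was tested on simulated data. The 10 genes, the 4 lists of related genes and the 10 lists of cell type markers were chosen with earlier results of these data known. Named genes are all members, the called genes of each list of related genes (or its 2 brightest), and the 5 genes of most similar profile. Called cell type markers are named too, Lama2 checks the labels, and the text says where a gene was picked after its values were seen. Alternatives were other offsets, scalings, filters, variance priors, blocks and thresholds, averaging over a gene's probe sets, and each array left out.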

Additional observations from a re-analysis of the deposited data

Results flagged for a closer look

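Jun, read by probe set 1417409_at, had a signal of 2319.1 in normal pool 3, against 1244.1 to 1344.3 in the other 3 normal pools. On the scale of log2(signal + 16) the gap of normal pool 3 to its nearest neighbour was 0.876 of the range of the normal group, above the 95% critical value of Dixon's test for 4 samples. Among 24 groups of 4 pools examined on that scale it was the 1 such value, and chance gives about 1 in 20. On the signals themselves there were 3 in 24, all in normal pool 3. These were Jun 1417409_at, with a gap of 0.907 of the range, Fos, at 3996.5 against 1679.2 to 2056.2 in the other normal pools, with 0.837, and Ier2, at 1191.3 against 518.9 to 619.7, with 0.85. The other Jun probe set, 1448694_at, had 1009.3 in normal pool 3, against 801.2 to 943.6 in the other normal pools.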

How the results depend on the processing

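No immediate early probe set passed under any of the 22 alternatives, and the lowest limma adjusted p was 0.231. Of 263 member values, 19 changed sign, 15 of them with 1 pool left out, in 7 probe sets. Settings that changed only the filter, variance prior, block or threshold left each difference as it was, so no sign could change there. Atf3, Egr1, Ier2, Nr4a1 and Jun 1448694_at never changed sign. Even so, Jun 1448694_at came to 0.006 without dystrophic pool 3, and Ier2 ran from 0.21 to 0.87 with 1 pool left out. With 1 pool left out the log2 difference ran from -0.31 to 0.56 for Fos, -0.067 to 0.33 for Fosb, -0.10 to 0.28 for Jun 1417409_at, -0.19 to 0.48 for Junb, -0.32 to 0.087 for Dusp1 and -0.30 to 0.048 for Btg2 1448272_at. Without normal pool 4 and dystrophic pool 3 together it was -0.42 for Fos, -0.086 for Fosb, -0.15 for Jun 1417409_at and -0.10 for Btg2 1416250_at. Btg2 1416250_at ran from 0.04 to 0.57 with 1 pool left out and was 0.07 with array weights. The causes of these changes were not tested. Fosb was too dim to be tested with the lowest 60% left out.

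Over all probe sets, 67 passed. The count was 127 with array weights, 114 with the spike-in level as a block, 24 at a threshold of 0.01, 31 without normal pool 4 and dystrophic pool 3 together, and 25 to 61 with 1 pool left out (34, 29 and 25 without dystrophic pools 2, 3 and 4). With a replicate block it was 105. Log2 deviations from the group mean correlated at 0.48, -0.05, 0.15 and 0.13 between same-numbered pools 1 to 4. The highest correlation of each dystrophic pool with a normal pool of another number was -0.11, 0.16, 0.16 and 0.13. Only pool 1 stood clearly above the other numbers, so the numbers were not taken to pair the pools. In the fit with the replicate block, 2 member probe sets had an unadjusted p under 0.05, Ier2 and Atf3, with limma adjusted p-values of 0.231 and 0.255. The standard error was smaller for 12 of 12 in that fit, with a median of 0.17, against 0.28 without the block. Other early response genes that passed numbered 1 with array weights, 2 with the replicate block, 3 with the spike-in level as a block, and 1 each without normal pool 1 and when each gene's probe sets were averaged. For AP-1 and Egr partners and targets 1 passed, and 2 with array weights, without normal pool 4, and without normal pool 4 and dystrophic pool 3 together. The median of that list was 0.13 with array weights and 0.42 with the lowest 60% left out, against 0.23.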
